A study of Mus musculus with 22 samples.

Results

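Matrix-degrading proteases, their inhibitors and the urokinase system were followed in leukocytes sorted from injured mouse muscle, as 10 genes out of the 19938 measured: Mmp9, Mmp12, Mmp13, Mmp14, Mmp19, Adam8, Timp1, Timp2, Plau and Plaur. The members were picked by name, and each was read from the probe set that the array's gene table assigns to it. All 10 have 1 such probe set, and all 10 lie above the median gene in mean signal. The mice carried the strain label C57B6/J, and their tibialis anterior muscle was injured by injection of cardiotoxin, a toxin from snake venom that destroys fibres and starts regeneration. Hematopoietic cells selected for CD45 on magnetic beads were stained for Gr1 and Cx3cr1 on day 1, 2, 4 or 8 after injury and sorted. The groups are Gr1+/Cx3cr1low cells, called Gr1-positive here, and Gr1-/Cx3cr1high cells, called Gr1-negative, which the protocol also names Ly6C+ F4/80low and Ly6C- F4/80high. Each of the 8 groups of a day and a subset holds 3 arrays labelled as biological replicates, except the Gr1-positive cells of day 8 with 1 array. There was no uninjured group among the 22 arrays, and the ages, the sex and the number of animals behind each array are not given in the sources used here. The p-values measure the spread between these arrays.

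Matrix metalloproteinases are zinc enzymes, secreted or held at the cell surface, that cut collagen, elastin, gelatin and other matrix proteins, and are made as inactive precursors. TIMPs are small secreted proteins that block the active site of these enzymes. Urokinase, bound to its receptor, turns plasminogen into plasmin, a broad protease that cuts fibrin and activates several metalloproteinase precursors. In injured muscle, macrophages are known for clearing debris and provisional matrix with such enzymes while satellite cells rebuild the fibres.

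The median log2 signal of an array was 7.02 to 7.18, and precision is limited by how many arrays there are. Genes that mark macrophages and leukocytes, among them Csf1r, Cd68 and Adgre1, had a list mean between 11.45 and 11.93 in every group, on the log2 scale. From day 1 to day 4, 6 of these 10 genes were higher and 1 lower in Gr1-negative cells, beside 24.1% of all genes called. In Gr1-positive cells 5 were higher and 1 lower, beside 25.6%. Markers of other cells moved with the groups as well. The Gr1-negative cells had more signal for 6 of 10 dendritic cell genes on day 1, for 7 on day 2 and for 5 on day 4, with 1 lower. Mast cell and eosinophil markers had a higher list mean in Gr1-negative cells in all 10 same-numbered pairs (by 0.53 to 1.85). Of the 10 genes, 1 was called higher on each of days 1, 2 and 4. The median of these 10 genes was 1.17, 0.47, 0.73 and 1.50 above Gr1-positive cells on the 4 days, on day 8 against 1 array. Siglecf was lower on day 2. Of 15 neutrophil markers, 5 were lower in Gr1-negative cells on day 1, 4 on day 2 and 1 on day 4. On day 8 the list mean was 6.65 in Gr1-negative cells and 7.62 in the single Gr1-positive array. In Gr1-positive cells it went from 7.98 on day 1 to 7.19 on day 4. Over all genes, 0.858%, 3.54% and 0.717% were called between the subsets on days 1, 2 and 4. Of 11 fibroblast markers, 7 were higher in Gr1-negative cells on day 8 than on day 1, and 9 of 10 muscle fibre markers were. Over all genes 8.68% were. The part of these cells in the results below was not tested, and a marker value given beside a result is a description. In such bulk samples, fewer cells of a type and less RNA per cell cannot be told apart.

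Levels are log2 signals, with mean ± SD where arrays of a group are averaged (n = 3), and each difference between groups is on the same log2 scale with the SE of the fit. Arrays are given in the order of their replicate numbers. A gene was called at a limma adjusted p under 0.05, with Benjamini-Hochberg adjustment over all 19938 genes of a comparison. Signals of different probe sets were not set against each other.

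Over the 8 group means, Timp1 covered the widest range of the 10 members, 4.10 on the log2 scale or 17.1-fold, followed by Mmp19 with 2.57, Timp2 with 2.22, Mmp9 with 1.97 and Mmp12 with 1.83. Mmp14 and Plau covered the narrowest, 0.77 each. The range of Timp1 was at the 99.9th percentile of all genes, and those of Mmp14 and Plau were at the 76.1st and the 75.9th.

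**Figure D1:**
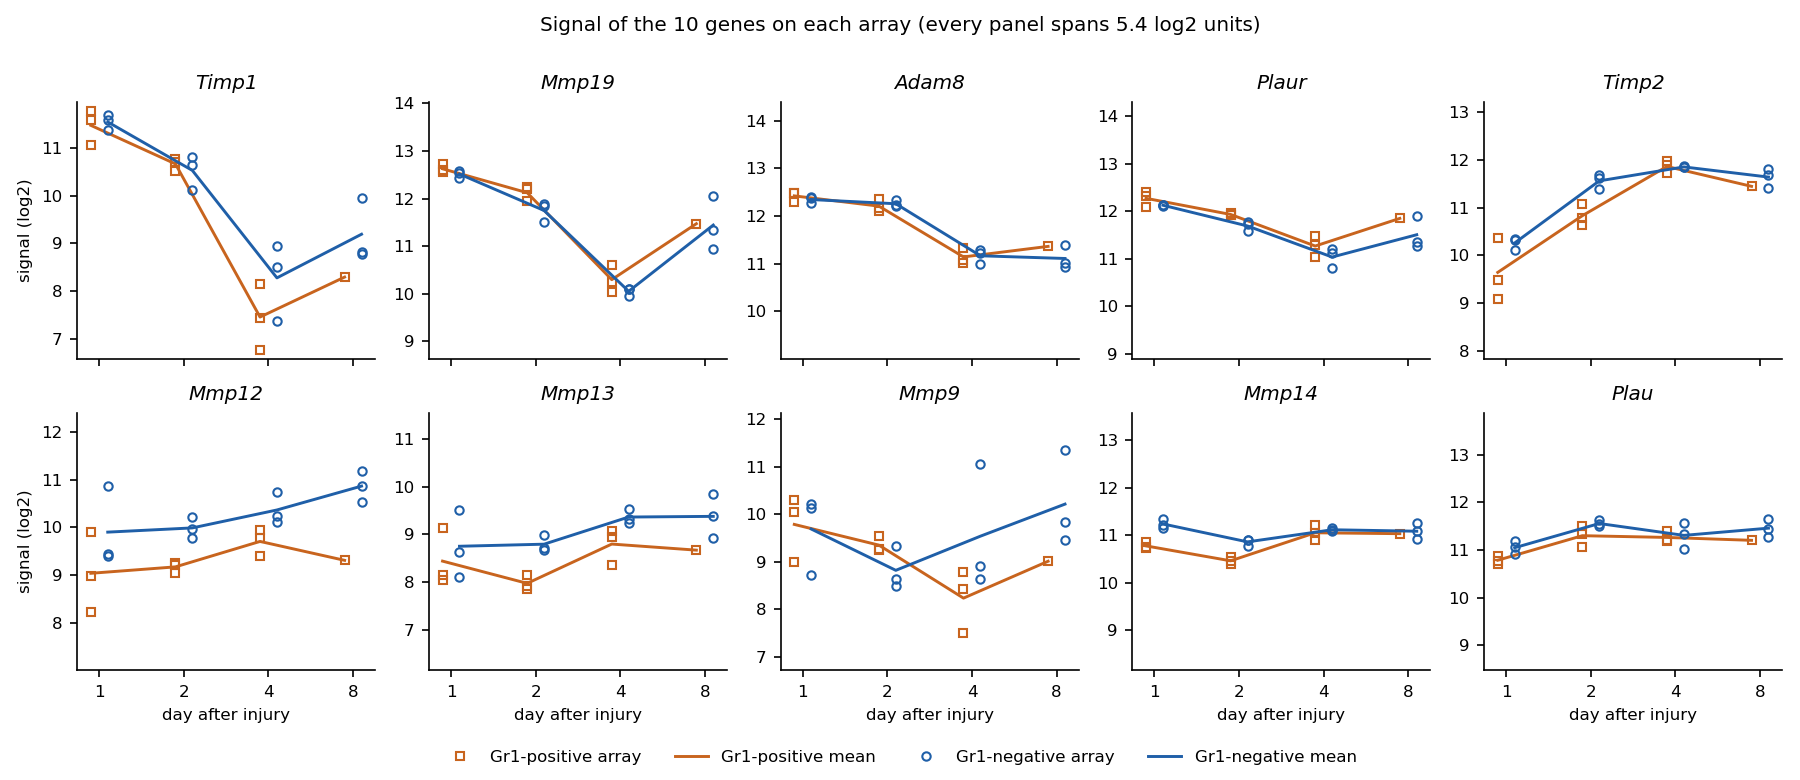
Log2 signal of the 10 members (y axis) on days 1, 2, 4 and 8 after injury (x axis, days evenly spaced), with 1 point per array and lines through the group means. Timp1, Mmp19, Adam8 and Plaur lie lower on day 4 than on day 1 in both subsets, Timp2 lies higher, and Mmp12 and Mmp13 lie higher in Gr1-negative than in Gr1-positive cells in every same-numbered pair.

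Without a replicate block in the fit, more members, and more of all genes, were called from day 1 to day 4 than between the subsets. Between the subsets, limma called 1, 1 and 0 of the 10 on days 1, 2 and 4. Over all genes it called 0.858%, 3.54% and 0.717%. With day and array number as a fixed block it called 3, 5 and 4 of the 10, beside 3.75%, 11.9% and 3.53%. From day 1 to day 4, 5 of the 10 members changed in Gr1-negative cells, beside 24.1% of all genes: Timp2 rose and Timp1, Mmp19, Adam8 and Plaur fell (15.5% of all genes were higher and 8.67% lower). In Gr1-positive cells 7 of 10 changed over the same days, beside 25.6% of all genes: Timp2, Plau and Mmp14 rose, and Timp1, Mmp19, Adam8 and Plaur fell (16.2% of all genes were higher and 9.42% lower). The median member differed by -0.14 in Gr1-negative and by -0.36 in Gr1-positive cells on the log2 scale, and the median gene by -0.06 and 0.00. Over the same days 6 of 15 neutrophil markers were lower and 1 higher in Gr1-negative cells and 7 lower and 1 higher in Gr1-positive cells, and 5 and 6 of 10 dendritic cell markers were higher. The part of such cells in the members' changes was not tested.

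The falls of Timp1, Mmp19, Adam8 and Plaur were larger from day 2 to day 4 than from day 1 to day 2 in both subsets. The later step spans more time than the first, so these sizes are not rates per day. Timp2 in Gr1-negative cells rose by 1.30 in the first step and 0.29 in the second. Plau in Gr1-positive cells changed by 0.52 and then by -0.04. In Gr1-positive cells 1 member, Timp2, was called from day 1 to day 2, beside 0.291% of all genes, and 6 from day 2 to day 4, beside 19.2%. In the step to day 2, 6 members had an unadjusted limma p under 0.05. Timp2 rose in the first step (0.16% of all genes were higher). In the second, Mmp14 and Timp2 rose and Timp1, Mmp19, Adam8 and Plaur fell, where 11.8% of all genes were higher and 7.44% lower. In Gr1-negative cells 4 members were called from day 1 to day 2, beside 4.88% of all genes: Timp2 and Plau rose, and Mmp14 and Mmp19 fell (3.8% of all genes were higher and 1.08% lower). From day 2 to day 4, 4 were called, Mmp19 again among them, beside 14.8% of all genes. All 4 fell, as did 6.69% of all genes. From day 4 to day 8, 2 members rose in Gr1-negative cells, Mmp19 and Plaur, beside 10.5% of all genes changed and 3.17% higher. Over the whole course from day 1 to day 8, 6 were called in these cells, with Timp2 and Plau higher and Timp1, Mmp19, Adam8 and Plaur lower, beside 18.4% of all genes (8.68% higher and 9.77% lower).

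**Figure D2:**
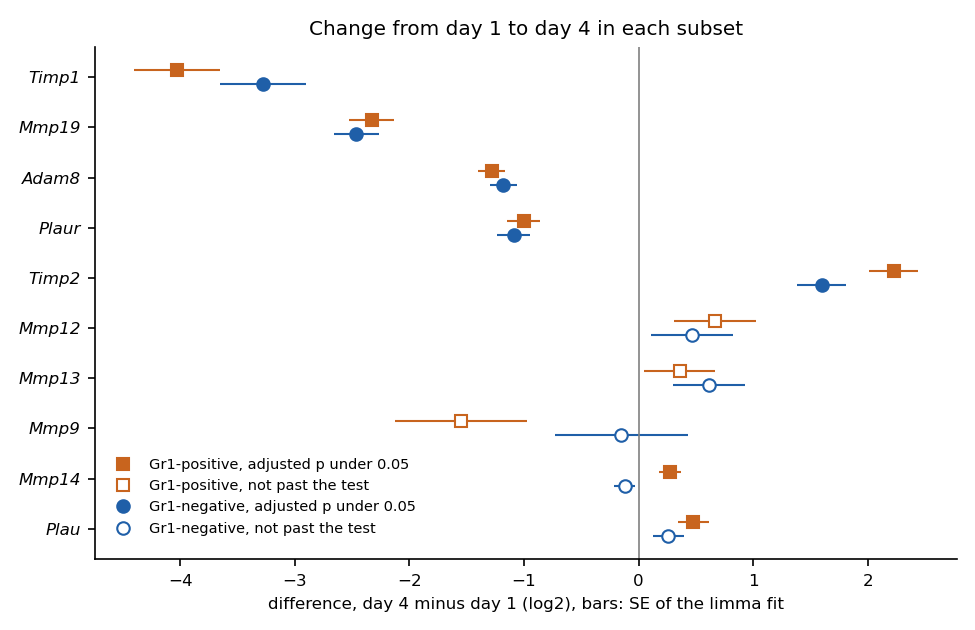
Log2 difference from day 1 to day 4 (x axis) of each member (y axis) in each subset, as the limma difference with its SE. Timp1 has the largest fall in both subsets, -4.03 in Gr1-positive and -3.28 in Gr1-negative cells, and Timp2 the largest rise, 2.22 and 1.60.

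Timp1, a secreted inhibitor of most metalloproteinases that also signals as a growth factor, fell most of the members. In Gr1-positive cells its arrays read 11.79, 11.59 and 11.06 on day 1, 10.77, 10.52 and 10.71 on day 2 and 8.15, 7.43 and 6.77 on day 4, and the day 8 array read 8.29. In Gr1-negative cells they read 11.69, 11.59 and 11.37 on day 1, 10.82, 10.12 and 10.65 on day 2, 8.95, 8.50 and 7.38 on day 4 and 9.96, 8.79 and 8.83 on day 8. Every array of day 4 was lower than every array of days 1 and 2 in its subset, with no overlap. Day 4 did not overlap day 1 or day 2 for 38.5% and 42% of all genes in Gr1-negative cells. In Gr1-positive cells these shares were 35.9% and 31.1%. From day 1 to day 4 Timp1 fell 16.3-fold in Gr1-positive cells (-4.03 ± 0.37, adjusted p = 4.29e-07) and 9.68-fold in Gr1-negative cells (-3.28 ± 0.37, adjusted p = 4.14e-06). From day 2 to day 4 the falls were 9.30-fold (adjusted p = 1.25e-05) and 4.78-fold (adjusted p = 0.000404). On day 8 the Gr1-negative cells were still 5.13-fold below day 1 (adjusted p = 0.000188). Their change from day 4 to day 8, 0.92, was not called (adjusted p = 0.114), and with array weights it was 1.07 (adjusted p = 0.0382).

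The lower Timp1 of day 4 was seen in both subsets, and it was lower in Gr1-positive cells in each of the 3 same-numbered pairs. Gr1-negative minus Gr1-positive was 0.80, 1.06 and 0.61 on day 4, and -0.10, 0.00 and 0.31 on day 1. The day 4 difference of 0.82 was not called (adjusted p = 0.405). With day and array number as a fixed replicate block the adjusted p was 0.00164, and with a random block, at the estimated correlation, it was 0.153. On day 8 the fixed block gave 1.67 from 1 pair (adjusted p = 0.00124), the random block 1.11 (0.167) and the fit without a block 0.90 (0.399). Within each subset on day 4, Timp1 and the fibroblast marker mean had the same order of arrays: the marker mean was 8.47, 8.11 and 7.22 in Gr1-negative and 7.83, 7.45 and 7.23 in Gr1-positive cells. In Gr1-negative cells the marker mean went from 6.83 on day 1 to 7.93 on day 4, while Timp1 fell. In Gr1-positive cells the marker mean went from 6.79 to 7.50, and Timp1 fell there too. The part of fibroblasts in the Timp1 levels was not tested.

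Timp2, the inhibitor that also helps Mmp14 activate the gelatinase Mmp2 at the cell surface, went the other way. Gr1-positive arrays read 9.08, 9.47 and 10.37 on day 1, 10.64, 11.07 and 10.78 on day 2, 11.97, 11.72 and 11.90 on day 4 and 11.45 on day 8. Gr1-negative arrays read 10.12, 10.31 and 10.34 on day 1, 11.38, 11.69 and 11.62 on day 2, 11.87, 11.85 and 11.85 on day 4 and 11.42, 11.69 and 11.82 on day 8. The day 1 arrays were the lowest of each subset. In Gr1-negative cells the step from day 2 to day 4, 0.29, was not called (adjusted p = 0.388). From day 1 to day 4 Timp2 rose 4.67-fold in Gr1-positive cells (2.22 ± 0.21, adjusted p = 5.68e-07) and 3.03-fold in Gr1-negative cells (1.60 ± 0.21, adjusted p = 1.89e-05). The step from day 1 to day 2 was 2.47-fold in Gr1-negative cells (1.30, adjusted p = 0.00228) and 2.28-fold in Gr1-positive cells (1.19, adjusted p = 0.024), where the step from day 2 to day 4 was 2.05-fold (adjusted p = 0.0017). In Gr1-negative cells of day 8 it was 2.61-fold above day 1 (adjusted p = 0.000141). The Gr1-positive step to day 2 was no longer called without day 1 array 1 or 2 or day 2 array 2 or 3 (adjusted p from 0.0802 to 0.185).

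On days 1 and 2 Timp2 was mostly higher in Gr1-negative cells: the paired differences were 1.04, 0.84 and -0.02 on day 1 and 0.75, 0.62 and 0.83 on day 2, and lay between -0.10 and 0.12 on days 4 and 8. Without a block these differences were not called, with 0.62 on day 1 (adjusted p = 0.273) and 0.73 on day 2 (adjusted p = 0.0643). The adjusted p was 0.044 and 0.00782 with the fixed block and 0.0744 and 0.0131 with the random block, so that only day 2 was called with both. Gr1-positive array 3 of day 1, at 10.37, stood apart from the other two of its group, and without it the day 1 difference was 0.98 (adjusted p = 0.00197). Without Gr1-positive array 2 the day 2 difference was 0.85 (adjusted p = 0.0438). Dendritic cell genes had a higher list mean in Gr1-negative cells on these days as well, 8.67 against 7.07 on day 1 and 8.41 against 7.25 on day 2. On day 4 they were higher too, 9.43 against 8.50. The part of dendritic cells in the Timp2 differences was not tested.

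Among the proteases, Mmp19, a secreted enzyme that cuts basement membrane and other matrix proteins, changed most. In Gr1-negative cells its arrays read 12.57, 12.54 and 12.43 on day 1, 11.85, 11.51 and 11.89 on day 2, 9.95, 10.11 and 10.10 on day 4 and 12.05, 11.34 and 10.93 on day 8. Gr1-positive arrays read 12.72, 12.60 and 12.56 on day 1, 12.23, 11.94 and 12.19 on day 2, 10.04, 10.60 and 10.25 on day 4 and 11.47 on day 8. Day 4 did not overlap day 1, 2 or 8 for 38.5%, 42% and 36.9% of all genes in Gr1-negative cells. In Gr1-positive cells it did not overlap day 1 or 2 for 35.9% and 31.1%. The 6 arrays of Mmp19 on day 4 were the lowest of the 22, and those of day 8 lay above them. From day 1 to day 4 it fell 5.51-fold in Gr1-negative cells (-2.46 ± 0.20, adjusted p = 1.24e-07) and 5.02-fold in Gr1-positive cells (-2.33 ± 0.20, adjusted p = 1.85e-07), most of it after day 2 (-1.70, adjusted p = 1.66e-05, and -1.83, adjusted p = 6.44e-06). From day 4 to day 8 it rose 2.62-fold in Gr1-negative cells (1.39, adjusted p = 0.00078), to a level still below day 1 (-1.07, adjusted p = 0.000714). The step from day 1 to day 2 in Gr1-negative cells was -0.76 (adjusted p = 0.0301), and it was not called without day 1 array 1, 2 or 3 or day 2 array 2 or 3 (adjusted p from 0.056 to 0.197). On day 2 it was lower in Gr1-negative cells in all 3 pairs, with differences of -0.38, -0.44 and -0.30. That difference of -0.37 had an adjusted p of 0.339 without a block, 0.0173 with the fixed and 0.163 with the random block.

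Adam8, a membrane metalloproteinase of myeloid cells that sheds surface receptors, fell between days 2 and 4 in both subsets. Gr1-negative arrays read 12.39, 12.38 and 12.27 on day 1, 12.34, 12.20 and 12.23 on day 2, 11.29, 11.21 and 10.99 on day 4 and 11.39, 10.92 and 11.01 on day 8. Gr1-positive arrays read 12.48, 12.48 and 12.30 on day 1, 12.35, 12.11 and 12.16 on day 2, 11.33, 11.08 and 11.00 on day 4 and 11.36 on day 8. In Gr1-negative cells day 4 did not overlap day 1 or 2 for 38.5% and 42% of all genes, and day 8 did not overlap day 1 for 30.7%. In Gr1-positive cells day 4 did not overlap day 1 or 2 for 35.9% and 31.1%. The Adam8 arrays of days 4 and 8 were all below those of days 1 and 2. The fall from day 1 to day 4 was 2.27-fold in Gr1-negative cells (-1.18 ± 0.12, adjusted p = 1.32e-06) and 2.43-fold in Gr1-positive cells (-1.28 ± 0.12, adjusted p = 4.29e-07). From day 2 to day 4 it was -1.09 (adjusted p = 1.09e-05) and -1.07 (adjusted p = 8.86e-06), and on day 8 the Gr1-negative cells were -1.24 from day 1 (adjusted p = 1.22e-06). The subsets differed little: the 10 paired differences ran from -0.11 to 0.13.

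The urokinase receptor gene Plaur, whose product holds urokinase at the cell surface, fell to day 4 in both subsets and rose part of the way back by day 8 in Gr1-negative cells. These read 12.11, 12.14 and 12.13 on day 1, 11.72, 11.58 and 11.76 on day 2, 10.80, 11.20 and 11.11 on day 4 and 11.90, 11.35 and 11.28 on day 8. Gr1-positive arrays read 12.40, 12.33 and 12.08 on day 1, 11.92, 11.92 and 11.96 on day 2, 11.04, 11.47 and 11.30 on day 4 and 11.85 on day 8. Days 1, 2 and 4 did not overlap within a subset. For these pairs of days, 23% to 42% of all genes were apart in Gr1-negative cells and 12.9% to 35.9% in Gr1-positive cells. From day 1 to day 4 Plaur fell 2.13-fold in Gr1-negative cells (-1.09 ± 0.14, adjusted p = 1.88e-05) and 2.00-fold in Gr1-positive cells (adjusted p = 3.63e-05), and from day 2 to day 4 by -0.65 (adjusted p = 0.00388) and -0.66 (adjusted p = 0.00266). On day 8 the Gr1-negative cells were -0.62 from day 1 (adjusted p = 0.00463). The rise from day 4 to day 8, 0.47 (adjusted p = 0.045), was not called without day 4 array 1, 2 or 3 or day 8 array 1 or 2 (adjusted p from 0.0597 to 0.22), and the value without day 8 array 1 was 0.27.

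Plau, which encodes urokinase, did not follow its receptor. Gr1-positive arrays read 10.70, 10.88 and 10.78 on day 1, 11.33, 11.50 and 11.07 on day 2, 11.20, 11.19 and 11.40 on day 4 and 11.20 on day 8. Gr1-negative arrays read 11.05, 11.19 and 10.91 on day 1, 11.54, 11.63 and 11.50 on day 2, 11.34, 11.02 and 11.56 on day 4 and 11.45, 11.27 and 11.66 on day 8. Day 1 was lowest in both subsets, though a Gr1-negative array of day 4 lay within the day 1 range. Plau rose 1.39-fold from day 1 to day 4 in Gr1-positive cells (0.48 ± 0.13, adjusted p = 0.0107). In Gr1-negative cells it rose 1.42-fold from day 1 to day 2 (0.51, adjusted p = 0.0324), and on day 8 it was 0.41 above day 1 (adjusted p = 0.0365). These calls were weak. The Gr1-positive rise was lost without day 1 array 1 or day 4 array 3 (adjusted p = 0.0504 and 0.0572). The Gr1-negative step to day 2 was lost without day 1 array 1 or 3 or any array of day 2 (adjusted p from 0.0518 to 0.17), and that to day 8 without day 1 array 1 or 3 or day 8 array 1 or 3 (adjusted p from 0.0715 to 0.174). Quantile normalization ended the call to day 2 (adjusted p = 0.0516) and array weights that to day 8 (adjusted p = 0.115).

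Mmp12, the macrophage elastase, and Mmp13, a collagenase, lie next to each other at the start of a run of 10 metalloproteinase genes on chromosome 9. Their promoters are shown together with that of Plaur because, of the members with a promoter at hand, these 3 hold the AP-1 letters TGANTCA, the element bound by Fos and Jun proteins. RefSeq promoters of build GRCm38.p6 matched 7 of the 10 members, with 2 start sites for Mmp12, of which only the second holds the AP-1 letters. Mmp9, Mmp19 and Plau were not among them. The 250 bases before the start are printed on the coding strand, with AP-1 and TATAAA letters in capitals, for the second start of Mmp12 (chr9:7347124-7347373, plus strand), Mmp13 (chr9:7272264-7272513, plus strand) and Plaur (chr7:24462233-24462482, plus strand).
Mmp12: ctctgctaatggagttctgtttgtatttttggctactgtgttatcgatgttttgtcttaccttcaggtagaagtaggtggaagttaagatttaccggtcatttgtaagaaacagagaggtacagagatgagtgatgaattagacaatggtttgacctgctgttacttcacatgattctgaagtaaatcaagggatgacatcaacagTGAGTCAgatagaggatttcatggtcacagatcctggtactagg
Mmp13: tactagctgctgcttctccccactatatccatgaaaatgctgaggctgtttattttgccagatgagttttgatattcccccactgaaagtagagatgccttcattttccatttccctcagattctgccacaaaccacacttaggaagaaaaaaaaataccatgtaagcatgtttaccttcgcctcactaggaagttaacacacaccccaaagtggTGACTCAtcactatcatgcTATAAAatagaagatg
Plaur: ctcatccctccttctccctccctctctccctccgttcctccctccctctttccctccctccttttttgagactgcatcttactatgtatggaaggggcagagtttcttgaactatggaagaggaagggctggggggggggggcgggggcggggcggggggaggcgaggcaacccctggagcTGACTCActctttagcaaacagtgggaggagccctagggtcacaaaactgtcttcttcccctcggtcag
The AP-1 letters begin 44 bases before the second start of Mmp12, 35 before that of Mmp13 and 69 before that of Plaur. In windows of 300 bases that also take in the 50 bases after the start, 3 of the 8 member promoters held TGANTCA on either strand, beside 7.81% of all 32851 promoters. TATAAA was in 2 of the 8 (Mmp13 and the second start of Mmp12, there after the start) and in 13.6% of all, and AGGAAG, the core of many ETS sites, in 5 of the 8 and in 35.4% of all. In the printed stretches the AP-1 and TATAAA letters do not overlap. A match is a description of these windows and not of binding.

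Mmp12 and Mmp13 were higher in Gr1-negative than in Gr1-positive cells in all 10 same-numbered pairs, as were 5.77% of all genes. Mmp12 read 9.40, 10.87 and 9.44 in Gr1-negative and 8.22, 9.90 and 8.99 in Gr1-positive cells on day 1. On day 2 it read 9.78, 9.97 and 10.22 against 9.21, 9.05 and 9.26, on day 4 10.24, 10.12 and 10.75 against 9.78, 9.40 and 9.94, and on day 8 10.88, 10.54 and 11.19 against the Gr1-positive array at 9.31. The groups overlapped on day 1 and were apart on days 2, 4 and 8. So were 24%, 19.1% and 66.6% of all genes, on day 8 against 1 array. The paired differences ran from 0.45 to 1.57 with a median of 0.86.

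Mmp13 read 8.63, 9.51 and 8.11 in Gr1-negative and 8.14, 9.13 and 8.04 in Gr1-positive cells on day 1, and 8.67, 8.72 and 8.99 against 7.91, 7.86 and 8.15 on day 2. It read 9.32, 9.23 and 9.54 against 9.08, 8.36 and 8.95 on day 4, and 8.91, 9.38 and 9.84 against 8.67 on day 8. On day 1 array 2 was the highest of each subset for both genes. The paired differences of Mmp13 ran from 0.07 to 0.87 with a median of 0.54.

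Neither gene was called between the subsets on any day without a block. Mmp12 differed by 0.86 on day 1 (adjusted p = 0.438), 0.82 on day 2 (0.241), 0.66 on day 4 (0.464) and 1.56 on day 8 (0.114). With the fixed block its adjusted p was 0.00288, 0.00158, 0.014 and 0.00478, the last from 1 pair. With the random block it was 0.119, 0.0694, 0.214 and 0.0429, so that only day 8 was called with both. Mmp13 differed by 0.31 on day 1 (adjusted p = 0.939), 0.82 on day 2 (0.166), 0.57 on day 4 (0.465) and 0.71 on day 8 (0.428). With the fixed block its adjusted p was 0.184, 0.000673, 0.0148 and 0.661, where the 1 pair of day 8 differed by 0.25, and with the random block 0.688, 0.0384, 0.221 and 0.404, so that only day 2 was called with both. The mast cell and eosinophil marker mean was higher in Gr1-negative cells on the same days, at 7.22 against 6.09, 6.78 against 6.18, 7.06 against 6.16 and 7.63 against 5.99. On day 1 it was highest in Gr1-negative array 2, at 7.94 beside 6.67 and 7.05, the array of that group in which Mmp12 and Mmp13 were highest, while the same-numbered Gr1-positive array, at 6.08, lay between the other two of its group. The dendritic cell list mean was also above that of Gr1-positive cells on each of these days (8.94 against 8.01 on day 8), and the part of such cells in these differences was not tested.

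Over time, Mmp12 in Gr1-negative cells was 0.97 higher on day 8 than on day 1 and Mmp13 0.63, and neither was called (adjusted p = 0.0706 and 0.19). Without Gr1-negative array 2 of day 1 both were, at 1.45 (adjusted p = 0.00561) and 1.01 (adjusted p = 0.0286), and so was Mmp13 from day 1 to day 4, at 0.99 (adjusted p = 0.0207). The Mmp12 change to day 8 was also called after quantile normalization (1.05, adjusted p = 0.0408) and with the random block (0.97, adjusted p = 0.0436). In Gr1-positive cells, Mmp12 from day 1 to day 4 was 0.67 (adjusted p = 0.214), and 1.10 without day 1 array 2 (adjusted p = 0.026). Mmp13 from day 2 to day 4 was 0.83 (adjusted p = 0.0721), and 1.04 without day 4 array 2 (adjusted p = 0.0416).

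**Figure D3:**
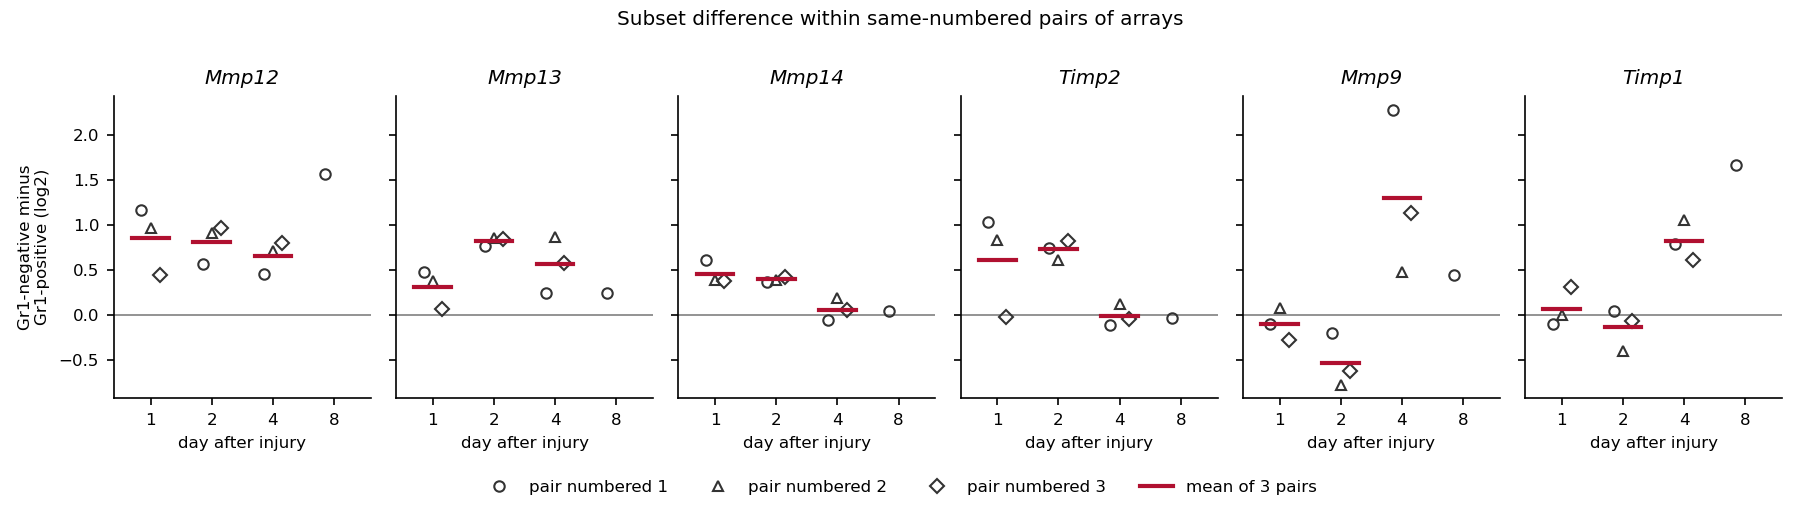
Gr1-negative minus Gr1-positive log2 signal (y axis) of 6 members, with 1 point per same-numbered pair of arrays on days 1, 2, 4 and 8 (x axis, days evenly spaced), a bar at the mean of 3 pairs and 1 pair on day 8. All 10 points of Mmp12 and of Mmp13 lie above 0, the points of Mmp14 lie between 0.37 and 0.61 on days 1 and 2, and those of Mmp9 lie below 0 on day 2 and above 0 on day 4.

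Mmp14, the membrane-type metalloproteinase that cuts collagen at the cell surface and activates Mmp2, was called between the subsets without a block. It read 11.34, 11.15 and 11.22 in Gr1-negative and 10.73, 10.75 and 10.85 in Gr1-positive cells on day 1, and 10.91, 10.78 and 10.89 against 10.53, 10.39 and 10.46 on day 2. On day 4 it read 11.16, 11.08 and 11.11 against 11.22, 10.89 and 11.05, and on day 8 11.08, 10.92 and 11.25 against 11.03. The subsets were apart on days 1 and 2, as were 11.4% and 24% of all genes, and overlapped on days 4 and 8. Gr1-negative cells were 1.38-fold higher on day 1 (0.46 ± 0.09, adjusted p = 0.0217) and 1.32-fold on day 2 (0.40 ± 0.09, adjusted p = 0.0251), so that 1 of 10 members was called on each day, beside 0.858% and 3.54% of all genes. On day 4 limma called 0 of the 10 members, beside 0.717% of all genes, and 2 had an unadjusted p under 0.05, and on day 8 it called 0, beside 2.03%, with 1 such member.

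The Mmp14 difference was lost on day 1 without Gr1-positive array 1 or 2 or Gr1-negative array 1 or 3 (adjusted p from 0.0595 to 0.112), and on day 2 without any array of the day other than Gr1-positive array 1 (adjusted p from 0.0592 to 0.109). Without both day 2 arrays numbered 1 it was 0.41 (adjusted p = 0.107), and after quantile normalization 0.36 (adjusted p = 0.0708). With either replicate block both days were called. The fixed block called 3, 5, 4 and 2 members in all between the subsets on days 1, 2, 4 and 8, beside 3.75%, 11.9%, 3.53% and 1.26% of all genes, and the random block 1, 3, 0 and 1, beside 2.37%, 9.32%, 2.24% and 3.85%. In Gr1-positive cells Mmp14 rose 1.50-fold from day 2 to day 4 (0.59 ± 0.09, adjusted p = 0.000222) and was 1.21-fold above day 1 by then (0.28, adjusted p = 0.0378). In Gr1-negative cells it fell from day 1 to day 2 (-0.38, adjusted p = 0.0266). The Gr1-positive difference from day 1 to day 4 was lost without day 1 array 1 or 2 or day 4 array 1 or 3 (adjusted p from 0.0776 to 0.212). The Gr1-negative fall was lost without day 1 array 1 or 3 or day 2 array 2 or 3 (adjusted p from 0.0581 to 0.166).

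Mmp9, the gelatinase that neutrophils carry in granules and macrophages also make, was uneven between arrays of a group. Gr1-negative arrays read 10.21, 10.13 and 8.72 on day 1, 9.34, 8.50 and 8.63 on day 2, 11.06, 8.91 and 8.64 on day 4 and 9.46, 9.83 and 11.35 on day 8. Gr1-positive arrays read 10.31, 10.06 and 8.99 on day 1, 9.53, 9.27 and 9.25 on day 2, 8.78, 8.43 and 7.50 on day 4 and 9.01 on day 8. Single arrays stood high in the Gr1-negative groups of days 4 and 8, and array 3 was the lowest of day 1 in both subsets. Mmp9 was called in none of the 14 comparisons, and its SD of 1.33 in Gr1-negative cells of day 4 was the largest of any member and group. Its largest change over time, from day 1 to day 4 in Gr1-positive cells, was -1.55 ± 0.58 (adjusted p = 0.0567), and without day 1 array 3 it was -1.94 (adjusted p = 0.0303). It was also called after quantile normalization (-1.66, adjusted p = 0.0482), with a low-signal filter (0.0454) and with the random block (0.0402).

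The 2 highest arrays of Mmp9 were also the 2 highest of the fibroblast marker mean: Gr1-negative array 3 of day 8, at 9.59 for the markers, and array 1 of day 4, at 8.47, where the other Gr1-negative arrays of those days lay between 7.22 and 8.11. Without that day 8 array, Gr1-negative Mmp9 on day 8 was -0.05 from day 1 in place of 0.52 (adjusted p = 0.976), and without that day 4 array the step from day 2 to day 4 was -0.04 in place of 0.72 (adjusted p = 0.977). The neutrophil marker list, which includes Mmp8 and Mmp25, had a lower mean in Gr1-negative cells. It was 7.07 against 7.64 on day 2 and 6.77 against 7.19 on day 4. The part of neutrophils and fibroblasts in the Mmp9 levels was not tested.

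The subset differences of Mmp9 and Timp1 were higher on day 4 than on day 2, a change called with the fixed block only. For Mmp9 the pairs were -0.20, -0.77 and -0.62 on day 2 and 2.28, 0.48 and 1.14 on day 4, and for Timp1 0.05, -0.40 and -0.06 and then 0.80, 1.06 and 0.61. The Mmp9 pair at 2.28 holds Gr1-negative array 1, the highest array of day 4 for the fibroblast markers. The 3 pairs of day 4 were above all 3 of day 2 for both genes. Without a block limma called 0 of 10 members for this change, beside 0.015% of all genes, with 3 at an unadjusted p under 0.05. It called 0 for the change from day 1 to day 4, beside 0.0953%, with 1 such member. With the fixed block the change from day 2 to day 4 was called for Mmp9 (1.83, adjusted p = 0.0252) and Timp1 (0.96, adjusted p = 0.0182), beside 0.958% of all genes. With the random block neither was called (adjusted p = 0.297 and 0.456). Within day 4 the Mmp9 difference had an adjusted p of 0.4 without a block, 0.00854 with the fixed and 0.152 with the random block.

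Another 17 metalloproteinases were measured. Mmp8, the neutrophil collagenase, fell 12.5-fold in Gr1-negative cells from day 1 to day 8 (-3.65 ± 0.23, adjusted p = 1.2e-08), with group means of 9.98 ± 0.42, 10.48 ± 0.15, 8.99 ± 0.36 and 6.33 ± 0.20 on days 1, 2, 4 and 8. In Gr1-positive cells Mmp8 fell 3.64-fold from day 1 to day 4 (-1.86, adjusted p = 8e-06), and on day 8 the single Gr1-positive array was 6.61-fold above the Gr1-negative cells (-2.72, adjusted p = 0.000248). Mmp27 rose from day 1 to day 4, 3.16-fold in Gr1-negative (1.66, adjusted p = 0.000345) and 3.05-fold in Gr1-positive cells (1.61, adjusted p = 0.00041). Mmp25, a membrane-anchored enzyme of leukocytes, is also on the neutrophil marker list. On day 8 it was 3.43-fold higher in Gr1-negative cells than in the single Gr1-positive array (1.78). Between the subsets it was not called on days 1, 2 or 4. From day 1 to day 4 in Gr1-negative cells, 2 of the 17 rose, Mmp27 and Mmp23, and 1, Mmp8, fell. Over all genes 15.5% rose and 8.67% fell. From day 1 to day 8 in these cells, 3 of the 17 were higher and 1 lower, beside 18.4% of all genes called. The rise of Mmp23, 0.37 (adjusted p = 0.0394), was lost without day 1 array 2 or 3 or day 4 array 1 or 2 (adjusted p from 0.0795 to 0.166). Of 6 other inhibitors, Timp3, Timp4, Reck, A2m, Spock1 and Spock2, limma called 0 in each of the 14 comparisons. The share of all genes called in these comparisons ran from 0.015% to 25.6%. For the 6 inhibitors, 2 of the 84 tests had an unadjusted p under 0.05.

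The partners of urokinase that passed fell with Plaur. Serpinb2, an inhibitor of urokinase also known as PAI-2, fell 13.9-fold in Gr1-positive (-3.80 ± 0.60, adjusted p = 8.53e-05) and 10.5-fold in Gr1-negative cells (-3.40 ± 0.60, adjusted p = 0.000276) from day 1 to day 4. Its day 1 arrays spread widely, with SDs of 1.63 and 1.29. Anxa2 and S100a10, which together form a surface receptor for plasminogen, fell by -0.96 and -0.82 in Gr1-positive cells (adjusted p = 1.62e-06 and 9.1e-05) and by -0.69 and -0.61 in Gr1-negative cells (adjusted p = 5.65e-05 and 0.00159). Plat, the tissue-type plasminogen activator, fell in Gr1-positive cells (-0.60, adjusted p = 0.00364). Among the 8 measured, 3 were called in Gr1-negative cells over these days and 4 in Gr1-positive cells, all of them lower. Over all genes 8.67% and 9.42% were lower.

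Among 11 other ADAM genes, 4 rose and 2 fell in Gr1-negative cells from day 1 to day 4, and 4 rose and 1 fell in Gr1-positive cells. Adam22 and Adam23, family members known to lack protease activity, rose from day 1 to day 4 in Gr1-negative (1.03 and 0.97, adjusted p = 3.37e-05 and 0.00152) and Gr1-positive cells (0.43 and 0.61, adjusted p = 0.033 and 0.0326). The Gr1-positive calls were lost without 1 array of day 1 or 4, for Adam22 any of them other than day 4 array 2 (adjusted p from 0.0597 to 0.159) and for Adam23 day 1 array 2 or 3 or day 4 array 1 or 2 (0.0595 to 0.169), and that of Adam23 also after quantile normalization (0.0639). In Gr1-negative cells Adam22 was 4.22-fold above day 1 on day 8 (2.08 ± 0.15, adjusted p = 5.57e-08), and Adam23 was 2.23-fold higher in Gr1-negative than in Gr1-positive cells on day 4 (1.16 ± 0.21, adjusted p = 0.00717). Adamdec1 was 1.96-fold higher on day 4 than on day 1 in Gr1-negative (0.97, adjusted p = 0.000265) and 1.73-fold in Gr1-positive cells (0.79, adjusted p = 0.00145), and Adam19 was 2.69-fold above day 1 on day 8 in Gr1-negative cells (1.43, adjusted p = 0.000949). Of 18 ADAMTS genes, 1 rose and 1 fell in Gr1-negative cells from day 1 to day 4 and 1 rose in Gr1-positive cells. These counts stand beside the same 24.1% and 25.6% of all genes. Adamts10 was the riser, by 0.62 in Gr1-positive cells (adjusted p = 0.000141). Adamts8 was lower on day 8 than on day 1 in Gr1-negative cells (-0.31, adjusted p = 0.0423), a call kept under 7 of 11 alternatives.

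**Figure D4:**
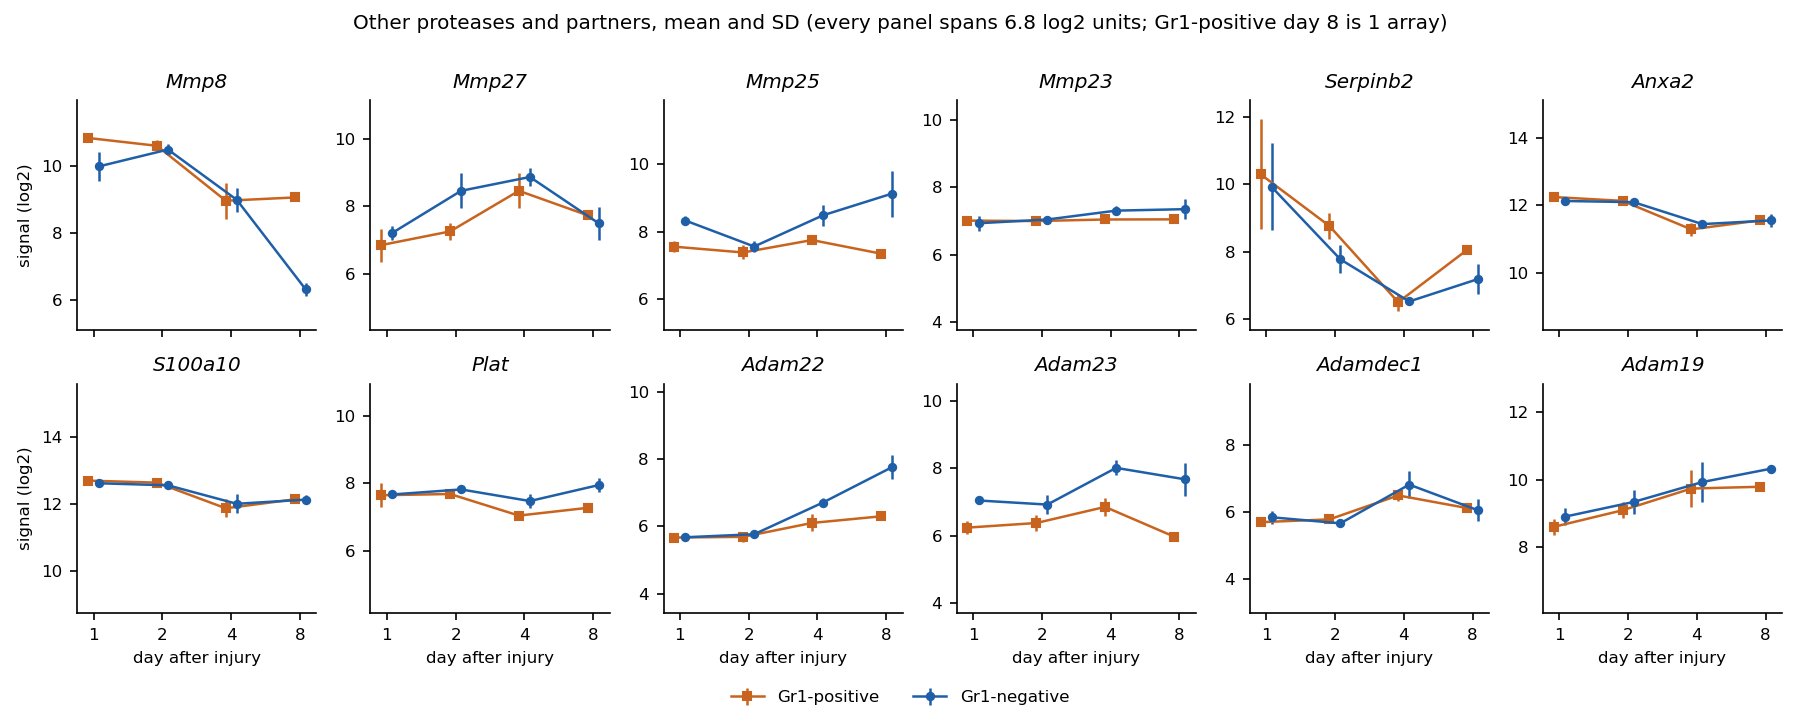
Mean log2 signal with SD (y axis) of 12 other proteases and partners on days 1, 2, 4 and 8 (x axis, days evenly spaced) in each subset, where every panel spans the same number of log2 units. Mmp8 falls to 6.33 in Gr1-negative cells of day 8, Serpinb2 falls in both subsets from day 1 to day 4, and Adam22 and Adam23 lie higher in Gr1-negative cells on day 4.

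Among 8 genes of protease activation and matrix uptake, Hpse, the heparanase that cuts heparan sulfate chains, rose 2.79-fold in Gr1-negative (1.48 ± 0.16, adjusted p = 2.79e-06) and 2.49-fold in Gr1-positive cells (1.32, adjusted p = 7.03e-06) from day 1 to day 4. Furin, which cuts the precursor of Mmp14 to its active form, fell by -0.70 and -0.58 (adjusted p = 0.000134 and 0.000749), and Cd44, a hyaluronan receptor, by -0.85 and -1.08 (adjusted p = 0.000267 and 2.38e-05). In each subset 1 of the 8 rose and 2 fell. Furin rose again in Gr1-negative cells from day 4 to day 8 (0.62, adjusted p = 0.00417), as Mmp19 and Plaur did. Between the subsets on day 2, 3.54% of all genes were called. Gr1-negative cells of that day had 2.31-fold more Mmp27 (adjusted p = 0.0307), while Adamts9 (-0.34, adjusted p = 0.0431) and the integrin gene Itgb3 (-0.54, adjusted p = 0.0454) were lower. These 3 calls were kept under 9, 6 and 7 of 13 alternatives, and each was lost without Gr1-positive array 1 or 3 or Gr1-negative array 2 or 3 of that day (adjusted p from 0.0728 to 0.201), those of Adamts9 and Itgb3 also without Gr1-negative array 1 (0.0883 and 0.0645) and without both arrays numbered 1 (0.281 and 0.106), and that of Adamts9 with the mean of probe sets (-0.11, 0.682).

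Matrix proteins that macrophages make fell over the same days. Of 6 measured, 5 fell and 1 rose in Gr1-negative cells from day 1 to day 4, and 4 fell in Gr1-positive cells. Over all genes 8.67% fell and 15.5% rose in Gr1-negative cells, and 9.42% fell in Gr1-positive cells. Vcan, the large proteoglycan versican, fell 18.9-fold in Gr1-negative (-4.24 ± 0.39, adjusted p = 5.17e-07) and 9.58-fold in Gr1-positive cells (-3.26, adjusted p = 5.59e-06), and on day 2 it was 5.01-fold lower in Gr1-negative cells (-2.33, adjusted p = 0.00333). Fn1, fibronectin, fell 3.08-fold and 2.75-fold (adjusted p = 9.39e-06 and 2.32e-05), and Thbs1 by -0.69 and -0.56 (adjusted p = 0.000206 and 0.0013). The gene that rose was Sparc, a collagen-binding protein also made by fibroblasts, by 2.28 ± 0.62 in Gr1-negative cells (adjusted p = 0.00981), where fibroblast markers had a list mean of 7.93 on day 4 and 6.83 on day 1. Without Gr1-negative array 1 of day 4, the second highest array of the fibroblast markers, the rise of Sparc was 1.82 and was not called (adjusted p = 0.0669).

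Over the 22 arrays, the gene with the pattern most like each member by Pearson r, as a description, was Ell2 for Mmp19 (r = 0.98), Psmd11 for Timp1 (0.96), Man1c1 for Timp2 (0.98), Rgcc for Adam8 (0.97) and Anxa11 for Plaur (0.98). Next for these were Ets2 and Pvr, Spred2 and Anxa2, Ly9 and Pacc1, Pkm and Pdpn, and Slc15a3 and Fosl1, all at 0.96 to 0.97. These 5 members had 108 to 174 other genes at r of 0.9 or above, and the other 5 members had 0. Mmp12 and Mmp13 were each other's most alike gene (0.87). After them came Chn2 (0.85) and Car2 (0.84) for Mmp12 and Pdgfc and Plxdc2 (both 0.82) for Mmp13. Mmp9 was most like Ccdc80 (0.87), F3 (0.84) and Adamts5 (0.81), Mmp14 most like Pmepa1 (0.86), Mtor (0.84) and Pxdc1 (0.81), and Plau most like Lpl (0.88), Cdc42se2 (0.86) and Mtss1 (0.84). Among the members themselves r was 0.96 for Mmp19 with Plaur, 0.93 for Timp1 with Adam8 and 0.90 for Mmp19 with Timp1, and Timp2 ran against Plaur (-0.88), Mmp19 (-0.83) and Timp1 (-0.81). The arrays share the day differences, so these values do not count as independent.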

How the data were processed

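RNA was measured on 22 Affymetrix arrays (Ambion WT Expression Kit, per the labels' protocols). The deposited values are log2 signals that the authors made with RMA, per the submitters' processing notes, which give no version; the values run from 2.34 to 13.95, so that high levels can be compressed. Of 35556 probe sets, the platform's table gives 1 gene for 21789, while 1621 with several were left out; 21698 were matched by Entrez number to RefSeq GRCm38.p6 names, and the probe annotation can be old. For 999 genes with more than 1 probe set, the brightest on average stood for the gene, and 19938 genes were analysed. No 2 arrays were copies (smallest root mean square difference 0.233).

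limma 3.58.1 in R 4.3.3 (statmod 1.5.0) fitted 1 mean per group over all 22 arrays, without trend, for 14 comparisons, with Benjamini-Hochberg adjustment over all genes of each and a threshold of 0.05. The single Gr1-positive array of day 8 takes its spread from the other groups. On simulated data for Gr1-negative cells from day 1 to day 4 (19938 genes) the test was checked and recovered 92% of genes changed by 1 and 99% of those changed by 2 on the log2 scale. Same-numbered arrays of a day deviated together: r was over 0.1 in 9 of 9 pairs over the 9969 genes at or above the median signal (0.25 to 0.86), which hold all members, and in 8 of 9 over all genes (0.098 to 0.65). The pairing comes from these values and the replicate numbers, since the labels do not say that a number marks shared animals. The replicate block is day and number together, entered as fixed or, with a correlation of 0.278, as random. Alternatives were quantile normalization, a low-signal filter (the lowest 25% of genes), the mean of probe sets, array weights, both blocks, and arrays left out.

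The members and gene lists were chosen with earlier results of these data known. Named genes are all members, the up to 4 genes per pathway list called in the most comparisons with any called between subsets, and the 3 genes most correlated with each member. Genes of the lists that are not among the 19938 were not analysed here. Figures used matplotlib 3.10.9 in Python 3.11.15 with pandas 2.3.3.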

Additional observations from a re-analysis of the deposited data

Results flagged for a closer look

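The Gr1-negative minus Gr1-positive difference changed from day 2 to day 4 for 2 members when day and array number were a fixed block. For Mmp9 the change was 1.83 on the log2 scale (limma adjusted p = 0.0252), and every pair was below 0 on day 2 and above 0 on day 4. For Timp1 it was 0.96 (adjusted p = 0.0182). Neither was called with a random block (adjusted p = 0.297 and 0.456) or without a block (0.844 and 0.979).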

How the results depend on the processing

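Of 37 member differences called, 27 were called under every alternative run: all calls of Timp1 and Adam8, those of Mmp19, Timp2 and Plaur other than the ones named as lost in the text, and the rise of Mmp14 in Gr1-positive cells from day 2 to day 4. With the fixed replicate block the members called between subsets were 3, 5, 4 and 2 on days 1, 2, 4 and 8 in place of 1, 1, 0 and 0, and 2 in place of 0 for how that difference moved from day 2 to day 4. With the random block they were 1 on day 1, 0 on day 4 and for that move, 3 on day 2 (Mmp13 at an adjusted p of 0.0384, Mmp14, and Timp2 at 0.0131) and 1 on day 8 (Mmp12, 0.0429). On day 2, quantile normalization gave 0, leaving out both arrays numbered 1 gave 0 and array weights gave 4, and weights gave 2 in place of 1 for Gr1-positive cells from day 1 to day 2. A fixed block of day and number leaves no change over time to estimate, since each block lies within 1 day. The random block ended no call of a change over time and gained 3: Mmp12 in Gr1-negative cells from day 1 to day 8 (adjusted p = 0.0436), Mmp13 from day 2 to day 4 (0.0479) and Mmp9 from day 1 to day 4 (0.0402), both in Gr1-positive cells. Array weights gained the rise of Timp1 in Gr1-negative cells from day 4 to day 8 (0.0382). Quantile normalization also gained the same changes of Mmp12 (0.0408) and Mmp9 (0.0482), and the low-signal filter that of Mmp9 (0.0454).

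With each array left out in turn, the members called ranged from 0 to 2 between subsets on day 1 and 0 to 1 on day 2. In Gr1-negative cells they ranged from 1 to 3 from day 1 to 2 and 1 to 2 from day 4 to 8, and in Gr1-positive cells from 0 to 1 from day 1 to 2. The sign changed for Mmp9 in Gr1-negative cells, where values ran from -0.0444 (without day 4 array 1) to 1.17 from day 2 to 4 and from -0.0457 (without day 8 array 3) to 0.90 from day 1 to 8, and in 28 of the 63 uncalled member differences under 0.5 in size. The cause was not tested. Of 103 calls of other named pathway genes, 71 were kept under every alternative and 0 changed sign.

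Over all genes, the fixed block called 747, 2375, 704 and 252 between subsets on the 4 days in place of 171, 705, 143 and 404, the random block 472, 1858, 447 and 767, and array weights 307, 3049, 316 and 1462; quantile normalization called 892 on day 8 and leaving out both day 2 arrays numbered 1 called 307 on day 2. For changes over time in Gr1-negative cells, weights called 2823 from day 1 to 2, 6161 from day 2 to 4 and 4777 from day 4 to 8 in place of 973, 2957 and 2096, and without both those arrays 2231 were called from day 1 to 2. In Gr1-positive cells from day 1 to 2, 58 were called, and 1842 with weights, 1225 without both those arrays, 113 with quantile normalization and 103 with the filter. How the subsets' difference moved from day 2 to 4 had 3 calls, and 191 with the fixed block, 48 with the random block, 109 with weights, 10 with quantile normalization and 8 with the filter; that from day 1 to 4 had 19, and 175, 91 and 56 with the blocks and weights. With 1 array left out, counts over all genes ran from 72 to 223 between subsets on day 1 (lowest without Gr1-positive array 1), 122 to 953 on day 2 (lowest without Gr1-negative array 2), 65 to 195 on day 4 (lowest without Gr1-positive array 2) and 160 to 728 on day 8 (without Gr1-negative array 3 and 1). They ran from 161 (without day 2 array 2) to 1286 in Gr1-negative cells from day 1 to 2, from 523 (without day 4 array 1) to 2565 from day 4 to 8, and in Gr1-positive cells from day 1 to 2 from 4 (without day 1 array 1 or day 2 array 2) to 955 (without day 2 array 1). For how the subsets' difference moved they ran from 0 to 18 from day 2 to 4 and from 8 to 48 from day 1 to 4, both highest without day 4 Gr1-positive array 3.

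Promoters searched only before the start held AP-1 letters in 3 of 8, TATAAA in 1 in place of 2 and AGGAAG in 5, beside 6.75%, 12.4% and 29.5% of all promoters.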
